A study of Mus musculus with 9 samples.

Results

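The mitochondrial carriers of the Slc25 family were examined in the livers of mice with raised hepatocyte GP73 and of mice fed a high-fat diet (HFD). The array names 47 genes as Slc25a followed by a number, and 44 of them were taken, with 3 left out by the rule that defined the group. They had 100 probes, and each carrier was represented by the probe that was brightest over the 9 arrays. A signal well above background, as the scanner software marks it, on every array of some group was required for a test. Of the 44 carriers 14 met this, 9 were detected only on scattered arrays, and 21 on none.

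Liver RNA came from 3 groups of male C57BL/6 mice with 3 arrays each. AAV-V mice carried an empty hepatocyte-directed adeno-associated virus (AAV), injected into the tail vein, and AAV-GP73 mice the same type of virus encoding mouse GP73, a Golgi protein, and both ate a normal diet. AAV-V HFD mice carried the empty virus and ate a high-fat diet, so that every mouse in the series had received an AAV. All samples are labelled 12 months of age. The sources differ on whether this time counts from birth or from injection and on how long the HFD lasted. None says if the RNA of an array came from a single liver, and p values therefore measure the spread between samples, which may be technical. The question was which liver genes respond to GP73 and which to HFD.

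Carriers of this family sit almost without exception in the inner mitochondrial membrane, where each exchanges or imports a small set of solutes that the membrane otherwise keeps apart. The adenine nucleotide and phosphate carriers feed the ATP synthase, the citrate and oxoglutarate carriers link the citric acid cycle with the cytosol, and others bring in the coenzymes that matrix enzymes need. In liver, citrate export supplies acetyl groups for making fatty acids and cholesterol, and carriers of malate and amino acids serve gluconeogenesis and the urea cycle. The carriers were therefore read by substrate.

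Promoter sequence is shown for the carriers on which the comparisons below turn, as the 250 bases before the RefSeq start in build GRCm38.p6, read 5′ to 3′ on the strand of the gene. Slc25a47 (chr12:108850879-108851128, plus strand) and Slc25a42 (chr8:70212282-70212531, minus strand) were the carriers that passed the test between AAV-GP73 and AAV-V HFD, Slc25a5 (chrX:36795347-36795596, plus strand) passed against AAV-V in both groups, and Slc25a1 (chr16:17928220-17928469, minus strand) was lower in AAV-GP73. Capitals mark, on either strand, matches to CCAAT and to the letters of the GC box and the E-box, which are given with their counts.
Slc25a47: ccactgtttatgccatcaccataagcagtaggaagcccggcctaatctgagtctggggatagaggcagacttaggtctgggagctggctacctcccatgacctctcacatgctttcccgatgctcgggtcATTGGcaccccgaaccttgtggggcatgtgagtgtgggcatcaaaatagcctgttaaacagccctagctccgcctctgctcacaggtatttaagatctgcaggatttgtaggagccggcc
Slc25a42: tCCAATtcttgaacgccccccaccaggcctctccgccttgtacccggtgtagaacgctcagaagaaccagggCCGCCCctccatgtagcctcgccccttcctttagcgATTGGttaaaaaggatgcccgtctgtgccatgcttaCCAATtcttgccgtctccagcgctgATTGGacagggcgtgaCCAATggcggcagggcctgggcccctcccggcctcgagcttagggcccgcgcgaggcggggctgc
Slc25a5: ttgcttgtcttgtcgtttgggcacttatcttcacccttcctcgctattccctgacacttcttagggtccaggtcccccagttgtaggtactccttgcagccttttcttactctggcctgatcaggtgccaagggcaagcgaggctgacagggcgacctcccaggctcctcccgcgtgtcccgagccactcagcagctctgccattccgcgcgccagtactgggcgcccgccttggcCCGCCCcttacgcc
Slc25a1: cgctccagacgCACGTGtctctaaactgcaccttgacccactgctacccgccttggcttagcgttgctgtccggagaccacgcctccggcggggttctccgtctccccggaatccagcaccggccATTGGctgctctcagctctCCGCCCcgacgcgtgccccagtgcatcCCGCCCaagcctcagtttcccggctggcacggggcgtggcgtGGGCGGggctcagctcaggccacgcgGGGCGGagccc

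The Slc25a42 window held 5 CCAAT matches, the Slc25a47 and Slc25a1 windows 1 each and the Slc25a5 window 0. CCAAT occurred in 33.8% of all 32851 promoter windows of this length. The GC box, with the letters GGGCGG, matched 4 times before Slc25a1 and once each before Slc25a42 and Slc25a5, and was found in 32.7% of all windows. The E-box CACGTG matched before Slc25a1 and stood in 6.02% of all windows. Searches on both strands for the TATA box TATAAA (12.4% of all windows), the sterol regulatory element TCACNCCAC (1.05%), the direct repeat DR1 (0.0335%) and the NRF1 site (3.74%) gave no match in the windows shown. The promoter table held 33 of the 44 carriers and 11 of the 14 tested, of which 8 held CCAAT, 9 the GC box, 2 the E-box (Slc25a1 and Slc25a33) and 1 the NRF1 site (Slc25a3). These matches describe letters only, and binding was not measured.

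The AAV-V arrays were dimmer than the others, which bears on every comparison with them. The processed signal of the 2667 probes detected on all 9 arrays had a median of 35.7 ± 2.83 (SD, n = 3) on the AAV-V arrays, 112.6 ± 14.1 on the AAV-GP73 arrays and 104.8 ± 25.2 on the AAV-V HFD arrays. After scaling, the weakest signal still called well above background was 3.77 to 3.94 on the log2 scale on the AAV-V arrays, against 1.85 to 2.49 on the AAV-GP73 and 2.04 to 2.81 on the AAV-V HFD arrays. AAV-V and AAV-GP73 shared 1 slide. The first position number in the file headers was 1 for all AAV-V and 2 for all AAV-GP73 arrays. GP73 thus cannot be told apart from position on the slide. A different slide held the AAV-V HFD arrays, and diet cannot be told apart from slide. Hepatocyte markers (7 of 7) were well above background on all arrays. Golm1, which encodes GP73, stayed below background throughout and could not serve to check the labels.

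Detection of the carriers differed between groups. On the AAV-V arrays 3 to 4 of the 44 carriers were well above background, on the AAV-GP73 arrays 15 to 17 and on the AAV-V HFD arrays 12 to 14. Slc25a1 and Slc25a39 were the only carriers detected on all 9 arrays. The share tested, 31.8%, compares with 15.5% of all 37074 gene names on the array. The part of the dimmer AAV-V arrays in these counts was not tested.

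**Figure D1:**
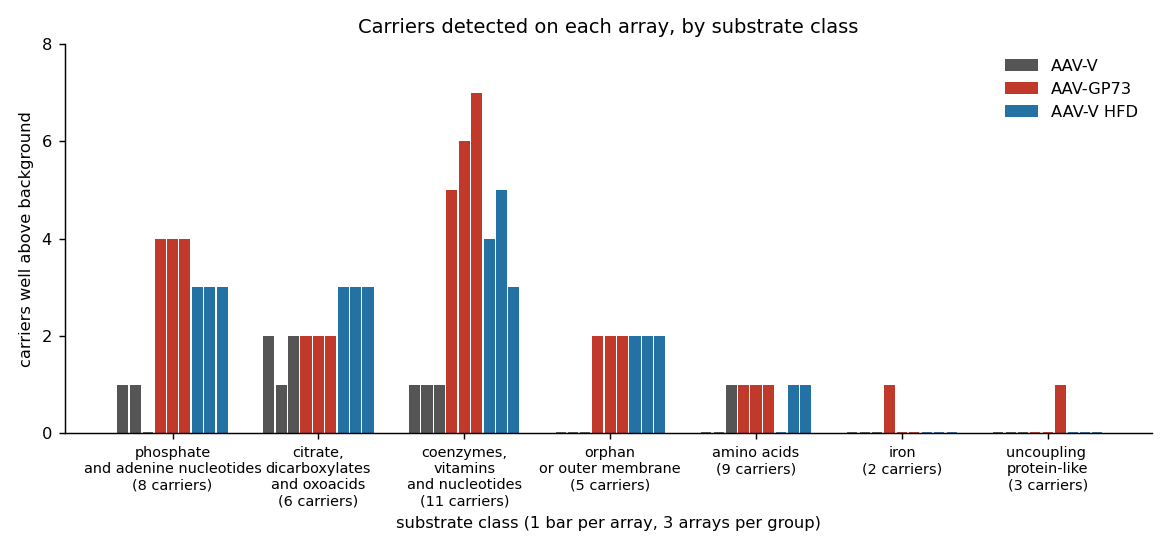
Number of carriers well above background (vertical axis) on each of the 9 arrays, by substrate class, with 1 bar per array. Among the 11 carriers of coenzymes, vitamins and nucleotides, 1 was detected on each AAV-V array, 5 to 7 on the AAV-GP73 arrays and 3 to 5 on the AAV-V HFD arrays, and no array detected more than 1 of the 9 carriers of amino acids taken.

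In AAV-GP73 against AAV-V, 9 of the 14 carriers tested were higher and 2 were lower at 2-fold or more with an adjusted p under 0.05 (limma), the latter being Slc25a1 and Slc25a34, which was above background in neither group. Of all 5761 genes tested, 33.2% were higher and 19.4% lower. In AAV-V HFD against AAV-V, 5 carriers were higher and 0 lower, against 24.8% and 18.2% of all genes tested. At the same fold the counts were also 5 and 0 with an unadjusted p under 0.05 in limma (25.4% and 18.5% of all genes). By the methods' t-test, unadjusted, they were 5 and 0 too (1176 and 971 of all 5761 genes). In AAV-GP73 against AAV-V HFD, Slc25a42 and Slc25a47 were higher and 0 were lower, against 1.96% and 0.555% of all genes tested. At the same fold and an unadjusted p under 0.05 in limma, 3 were higher and 1 lower (6.58% and 2.29% of all genes). The methods' t-test, unadjusted, gave 2 and 0 (238 and 89 of all 5761 genes). Many carriers entered the test because they were bright in AAV-GP73 or AAV-V HFD, so that these counts are no evidence about the family. Just 4 of the 14 were well above background on some array of AAV-V as well as of AAV-GP73, namely Slc25a3, Slc25a11 and Slc25a39, which were higher, and Slc25a1, which was lower. In AAV-GP73 as well as AAV-V HFD 11 were. Of the carriers passing as higher than AAV-V, 6 with GP73 and 3 with HFD were above background on no AAV-V array. A bound could be given for 4 and 2 of these. The comparisons with AAV-V share the AAV-V arrays, and in whole liver fewer cells of a type cannot be told apart from less RNA per cell.

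The size and sometimes the sign of these differences rested on how the arrays were scaled. The scaling used here made the 75th percentile of those 2667 detected probes equal between arrays, and levels below are log2 signals on that scale. With it the median log2 difference of all genes tested against AAV-V was 0.60 with GP73 and 0.37 with HFD, that between AAV-GP73 and AAV-V HFD was 0.09, and the 14 carriers had medians of 1.13, 0.57 and 0.21. Across 6 other scalings, among them normexp (another background correction, with an offset of 50) and the array's spike-in control spots, the median of all genes in AAV-GP73 against AAV-V ran from -0.58 (normexp) to 2.28 (spike-in spots). The share of higher genes among those called, 63.1% here, was 90.3% with the 75th percentile of all probes, 98.1% with spike-in spots and 16.2% with normexp. For AAV-V HFD against AAV-V that share was 57.6% here and 94.7%, 98.1% and 8.03% under those scalings, and 69.1% after quantile normalization. For AAV-GP73 against AAV-V HFD it was 77.9% here and 95.0% with spike-in spots. The carriers called in AAV-GP73 against AAV-V were 11 higher and 0 lower with all probes, 12 and 0 with spike-in spots, and 0 with normexp, and in AAV-V HFD 9 and 0, 10 and 0, and 0 higher. Of all genes tested, 64.5%, 76.1% and 2.40% were higher in AAV-GP73 under these scalings, and 56.8%, 65.5% and 1.25% in AAV-V HFD. The normexp offset of 50 exceeded the mean processed signal of all 14 carriers in AAV-V, of 11 in AAV-GP73 and of 12 in AAV-V HFD. Values less the median of all genes tested are therefore given beside the log2 differences. Less that median, the 14 carriers stood at a median of 0.54 with GP73 and 0.20 with HFD against AAV-V. This reference itself changed with the genes counted. Restricted to the 2427 genes that every array detected, the median against AAV-V was -0.19 with GP73 and -0.36 with HFD. Between AAV-GP73 and AAV-V HFD it was -0.05. Values less the median would be higher against that reference.

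**Figure D2:**
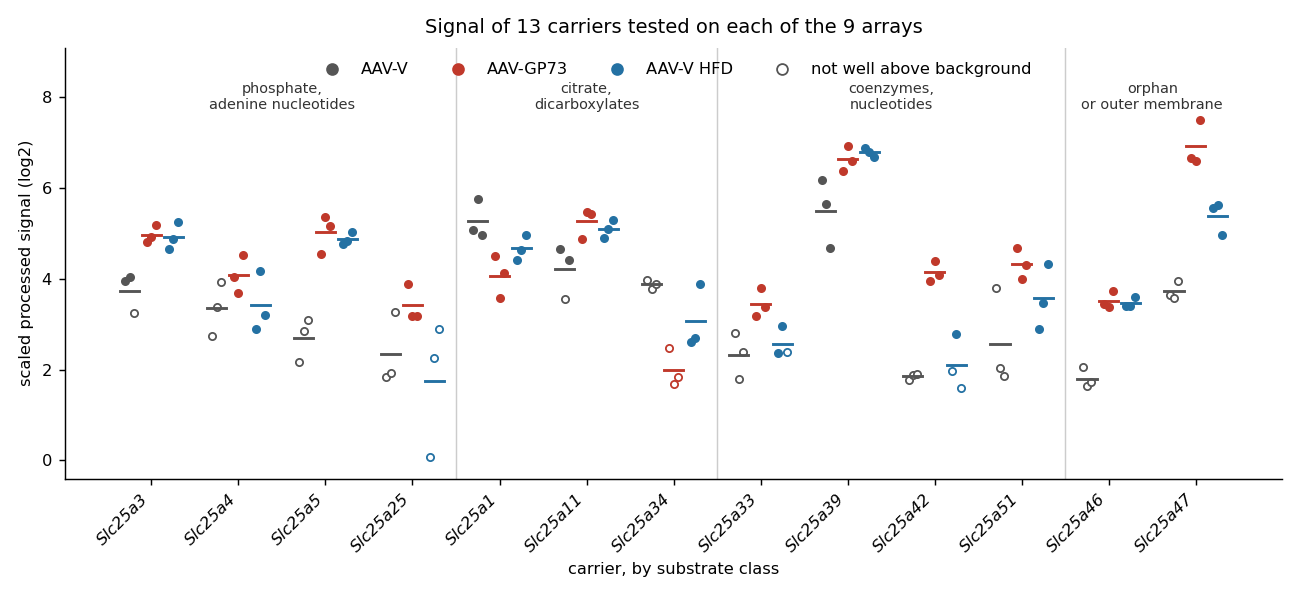
Scaled processed signal (log2, vertical axis) of 13 of the 14 carriers tested, by substrate class, with 1 point per array, open points for arrays on which the probe was not well above background, and bars for group means. Slc25a47, Slc25a5, Slc25a42 and Slc25a46 are open on all 3 AAV-V arrays and filled on all 3 AAV-GP73 arrays, and only Slc25a1 and Slc25a39 are filled throughout.

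Of the 8 carriers of phosphate and adenine nucleotides, 4 were tested, and 2 of them, Slc25a3 and Slc25a5, were higher than in AAV-V in both groups. Slc25a5 encodes the adenine nucleotide translocase that dividing and many other cells use to exchange matrix ATP for cytosolic ADP. Its probe (chromosome X of mm9, 34338561 to 34338620) had log2 signals of 2.17, 2.86 and 3.10 on the AAV-V arrays, 4.54, 5.37 and 5.17 on the AAV-GP73 arrays and 4.77, 4.83 and 5.02 on the AAV-V HFD arrays. All 6 arrays of the other groups lay above the 3 AAV-V arrays, none of which was well above background. The excess was at least 2.24-fold for AAV-GP73 (adjusted p = 0.000175) and at least 2.02-fold for AAV-V HFD (adjusted p = 0.000524), and the direction turned with normexp alone, to -0.19 and -0.36. AAV-GP73 and AAV-V HFD overlapped (log2 difference 0.15 ± 0.32 SE, adjusted p = 0.86).

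Slc25a3, the phosphate carrier that supplies the ATP synthase and also brings in copper, was well above background on all arrays but AAV-V replicate 3. Its values were 3.96, 4.04 and 3.24 on the AAV-V arrays, 4.81, 4.92 and 5.20 on the AAV-GP73 arrays and 4.66, 4.88 and 5.25 on the AAV-V HFD arrays. It was 2.35-fold higher in AAV-GP73 (log2 1.23 ± 0.30, adjusted p = 0.00412) and 2.28-fold higher in AAV-V HFD (log2 1.19 ± 0.30, adjusted p = 0.00681), less the median 0.64 and 0.82, with the sign turned by normexp (-0.24 and -0.35). Without AAV-V replicate 3 the differences were 0.98 and 0.93, and with that array set to its lowest detected signal, an alternative chosen after seeing the data, the folds were 1.998 and 1.93, all under the fold threshold. A second, dimmer Slc25a3 probe, well above background on all arrays of AAV-GP73 and AAV-V HFD, did not pass in either group (log2 0.21, adjusted p = 0.626, and 0.20, adjusted p = 0.665), so that the probes of this gene disagreed.

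Slc25a4, the translocase typical of heart and muscle, was not well above background in AAV-V and did not pass in either group (log2 0.73 ± 0.40 in AAV-GP73, adjusted p = 0.133, and 0.07 ± 0.40 in AAV-V HFD, adjusted p = 0.894). Slc25a25, a calcium-regulated carrier that swaps ATP-Mg for phosphate, was well above background on all AAV-GP73 arrays and on no other. Its mean was 3.42 ± 0.40 (SD, n = 3) there against 1.75 ± 1.48 in AAV-V HFD, where replicate 1 stood at 0.07. The arrays of these groups did not overlap and the bound was 1.99-fold, but the adjusted p was 0.202. Against AAV-V it gave 1.07 ± 0.63 SE (-0.70 with normexp) with an adjusted p of 0.155, and 0.0427 without AAV-V HFD replicate 1, which enters the shared spread. Slc25a23, Slc25a24 and Slc25a41, which also carry ATP-Mg, and Slc25a31, the translocase of the testis, were not detected on any array.

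Of the 6 carriers of citrate, dicarboxylates and oxoacids, 3 were tested, and they went separate ways. Slc25a1, the citrate carrier, was lower in AAV-GP73, whereas Slc25a11, which exchanges oxoglutarate for malate, was higher. The Slc25a1 probe (chromosome 16 of mm9, 17927280 to 17927339) read 5.08, 5.76 and 4.97 on the AAV-V arrays, 4.50, 3.57 and 4.14 on the AAV-GP73 arrays and 4.42, 4.65 and 4.96 on the AAV-V HFD arrays. Every AAV-GP73 array lay below every AAV-V array, a 2.29-fold lower signal (log2 -1.20 ± 0.33 SE, adjusted p = 0.00793, less the median -1.79). Before scaling, the mean processed signal was 19.7 in AAV-V, 25.4 with GP73 and 35.2 with HFD. The log2 difference lost its call with the 75th percentile of all probes (-0.20), turned to 0.49 with spike-in spots and fell under the fold threshold without AAV-V replicate 2 (-0.95) or AAV-GP73 replicate 2 (-0.95). Normexp and the methods' t-test after adjustment gave no call either. Less the median of all genes the log2 difference was below 0 under all 6 other scalings, from -2.20 to -0.31. Only quantile normalization, normexp and the deposited table could change this value, since the remaining scalings shift whole arrays. In AAV-V HFD all arrays were likewise below AAV-V, but the difference of -0.59 ± 0.33 SE did not pass (adjusted p = 0.143), and it changed sign with all probes (0.36) and spike-in spots (0.74). A second, dimmer Slc25a1 probe was well above background on only 2 arrays, both with GP73, and was not tested. Its mean was 2.72 with GP73, 2.24 for the empty virus on normal diet and 2.20 with HFD. With GP73 this order was opposite to that of the first probe. No direction was read from it, since no AAV-V array detected it.

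Slc25a11 had values of 4.66, 3.55 and 4.42 on the AAV-V arrays, 4.89, 5.48 and 5.44 on the AAV-GP73 arrays and 4.91, 5.10 and 5.29 on the AAV-V HFD arrays. The lowest AAV-GP73 and AAV-V HFD arrays lay above the highest AAV-V array, though narrowly, and AAV-V replicate 2 was not well above background. It was 2.08-fold higher in AAV-GP73 (log2 1.06 ± 0.33, adjusted p = 0.0156) and 1.85-fold in AAV-V HFD (log2 0.89 ± 0.33, adjusted p = 0.0387), where it missed the fold threshold. The AAV-GP73 call was lost without AAV-V replicate 2 (0.73), AAV-GP73 replicate 2 (0.95) or AAV-GP73 replicate 3 (0.97), and in AAV-V HFD a call appeared without AAV-V replicate 1 (1.11). Scaling to the median of detected probes lost the AAV-GP73 call too, as did the methods' t-test, also unadjusted. With AAV-V replicate 2 at its lowest detected signal the folds were 1.94 and 1.72, under the threshold. Normexp turned both signs (-0.24 and -0.39). A second, dimmer Slc25a11 probe was well above background on no array.

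Slc25a34, a carrier with no settled substrate placed here by sequence, was represented by a probe well above background on the AAV-V HFD arrays alone. A second, dimmer probe was so on 1 AAV-GP73 array only. The values of the first were 3.98, 3.78 and 3.90 on the AAV-V arrays, 2.47, 1.69 and 1.83 on the AAV-GP73 arrays and 2.61, 2.69 and 3.89 on the AAV-V HFD arrays. The AAV-GP73 arrays lay below the AAV-V HFD arrays, at least 1.74-fold, a difference that did not pass (log2 -1.07 ± 0.36, adjusted p = 0.166, and 0.016 with normexp). AAV-V HFD against AAV-V gave -0.82 ± 0.36 (adjusted p = 0.0746), and -1.23 with an adjusted p of 0.00883 without AAV-V HFD replicate 3. AAV-GP73 passed as lower than AAV-V (adjusted p = 0.00101), but neither group was above background, and neither a fold nor a direction was read from it. Slc25a10, the dicarboxylate carrier of liver, and Slc25a21 and Slc25a35 were not detected on any array.

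Of the 11 carriers of coenzymes, vitamins and nucleotides, 5 were tested and 4 passed as higher in AAV-GP73, Slc25a33 among them with no direction read. Slc25a42 imports coenzyme A into the matrix. Its probe (chromosome 8 of mm9, 72708298 to 72708357) read 1.77, 1.89 and 1.91 on the AAV-V arrays, 3.96, 4.40 and 4.09 on the AAV-GP73 arrays and 1.96, 2.78 and 1.59 on the AAV-V HFD arrays. All AAV-GP73 arrays stood above the other 6, and AAV-V HFD overlapped AAV-V. The dimmer probes of this gene were well above background on no array. The signal in AAV-GP73 exceeded that in AAV-V at least 1.22-fold (adjusted p = 0.000176), with the sign turned by normexp (-0.41), and the AAV-V HFD difference of 0.25 ± 0.32 did not pass (adjusted p = 0.519). Against AAV-V HFD, in which only replicate 2 was well above background, AAV-GP73 was higher by 2.04 ± 0.32 on the log2 scale (adjusted p = 0.00918), and 3.04-fold with the other AAV-V HFD arrays at their lowest detected signal. This direction held under all 6 other scalings, from 0.48 to 2.39, and the call in 4 of them, not with normexp (0.48) or in the deposited table (2.01), nor by the methods' t-test after Benjamini-Hochberg adjustment. The call was lost without AAV-GP73 replicate 2 (adjusted p = 0.0532) or replicate 3 (adjusted p = 0.0518), while the difference stayed between 1.78 and 2.37 whichever array was left out.

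Slc25a39, which brings glutathione into mitochondria, was detected on every array by its brightest probe. A second probe of the same mRNA was well above background on no array. Its values were 6.18, 5.64 and 4.67 on the AAV-V arrays, 6.37, 6.93 and 6.61 on the AAV-GP73 arrays and 6.89, 6.79 and 6.69 on the AAV-V HFD arrays. Both groups lay above AAV-V without overlap, 2.20-fold in AAV-GP73 (log2 1.14 ± 0.36, adjusted p = 0.0167) and 2.45-fold in AAV-V HFD (log2 1.29 ± 0.36, adjusted p = 0.011), and the direction held under all 6 other scalings. The AAV-GP73 call was lost in the deposited table (1.00), with normexp (0.17) and by the methods' t-test, also unadjusted, and the AAV-V HFD call with normexp (0.28) and by that test after adjustment. AAV-V replicate 3 was the lowest array, and without it the differences were 0.73 and 0.88, under the fold threshold. The AAV-GP73 call was also lost without AAV-GP73 replicate 2 (0.99). AAV-GP73 and AAV-V HFD differed by -0.15 ± 0.36 (adjusted p = 0.878). Slc25a40, its close relative, was at background throughout.

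Slc25a51 imports NAD+ into the matrix. Its values were 3.81, 2.04 and 1.86 on the AAV-V arrays, 4.69, 3.99 and 4.30 on the AAV-GP73 arrays and 2.90, 3.48 and 4.33 on the AAV-V HFD arrays. AAV-V replicate 1 stood apart from the other AAV-V arrays, and AAV-GP73 lay above all 3, at least 1.37-fold (adjusted p = 0.0104). By the methods' t-test, also unadjusted, this call was lost. A second, dimmer Slc25a51 probe was well above background on no array. The AAV-V HFD arrays overlapped AAV-V (log2 1.00 ± 0.51, adjusted p = 0.112), but passed without AAV-V replicate 1 (1.62, adjusted p = 0.00827). Slc25a33, a carrier of pyrimidine nucleotides, had values of 2.80, 1.79 and 2.40 on the AAV-V arrays, 3.17, 3.80 and 3.39 on the AAV-GP73 arrays and 2.37, 2.97 and 2.38 on the AAV-V HFD arrays. It passed as higher in AAV-GP73 (adjusted p = 0.0112), but no AAV-V array was well above background. The weakest signal that the AAV-V arrays could call lay above the AAV-GP73 mean. Neither a size nor a direction was therefore read from it. The call was lost without AAV-V replicate 2 or AAV-GP73 replicate 2 (fitted log2 differences of 0.85 and 0.95). By the methods' t-test after adjustment it was lost too. The AAV-V HFD arrays were all lower than those of AAV-GP73, 1 of them not well above background, a difference that did not pass (0.88 ± 0.33, adjusted p = 0.198). The AAV-GP73 differences of both carriers turned sign with normexp (-0.50 and -0.66).

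Of the 6 not tested, Slc25a17, the peroxisomal carrier of coenzyme A and NAD+, was well above background on 2 AAV-GP73 and 2 AAV-V HFD arrays. Slc25a32, which carries folate and FAD, was so on 1 AAV-GP73 array, and Slc25a36, a pyrimidine nucleotide carrier, on 1 AAV-V HFD array. Slc25a16, Slc25a26, the S-adenosylmethionine carrier, and Slc25a40 were detected on none.

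Slc25a47 and Slc25a46 were the 2 tested among 5 carriers without a settled substrate or located in the outer membrane. Both passed as higher than AAV-V in both groups, though no direction was read for Slc25a46. Slc25a47 is expressed mainly in liver. Its probe (chromosome 12 of mm9, 110094661 to 110094720) read 3.65, 3.59 and 3.95 on the AAV-V arrays, 6.67, 6.60 and 7.50 on the AAV-GP73 arrays and 5.57, 5.64 and 4.98 on the AAV-V HFD arrays. The groups fell into 3 separate ranges, with AAV-V lowest and AAV-GP73 highest. No AAV-V array was well above background, and AAV-GP73 exceeded them at least 8.33-fold (adjusted p = 4.74e-05) and AAV-V HFD at least 2.89-fold (adjusted p = 0.00164). The fitted AAV-GP73 difference was positive under all 6 other scalings, from 0.77 to 4.88, though not called with normexp, and the AAV-V HFD difference turned to -0.19 with normexp.

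Between AAV-GP73 and AAV-V HFD, whose arrays all detected it, Slc25a47 was 2.88-fold higher in AAV-GP73 (log2 1.53 ± 0.32, adjusted p = 0.0303), higher in 3 of 3 arrays. The difference lay between 0.96 and 1.88 under the 6 other scalings, but the call was lost in 4 of them (all probes, quantile, normexp and the deposited table) and by the methods' t-test after adjustment. Leaving out AAV-GP73 replicate 1, 2 or 3 or AAV-V HFD replicate 1 or 3 raised the adjusted p to 0.0575, 0.0787, 0.166, 0.0703 and 0.079. AAV-GP73 replicate 3 was the brightest array for this carrier, and without it the difference was 1.24. These groups also lay on different slides.

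Slc25a46, an outer membrane protein that shapes mitochondrial fission and lipid exchange, had values of 2.05, 1.63 and 1.73 on the AAV-V arrays, 3.44, 3.39 and 3.74 on the AAV-GP73 arrays and 3.41, 3.41 and 3.59 on the AAV-V HFD arrays. AAV-GP73 and AAV-V HFD overlapped each other, and their signals lay above AAV-V without overlap (adjusted p = 0.000222 and 0.000589). The carrier was tested only through these groups, as no AAV-V array was well above background. A second, dimmer Slc25a46 probe was so on no array. Neither a size nor a direction was read, since the mean of 3.52 in AAV-GP73 and of 3.47 in AAV-V HFD lay below the weakest signal that the AAV-V arrays could call. Normexp turned the sign of both fitted differences (-0.55 and -0.69). Slc25a43, Slc25a53 and Slc25a54 were not detected on any array.

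**Figure D3:**
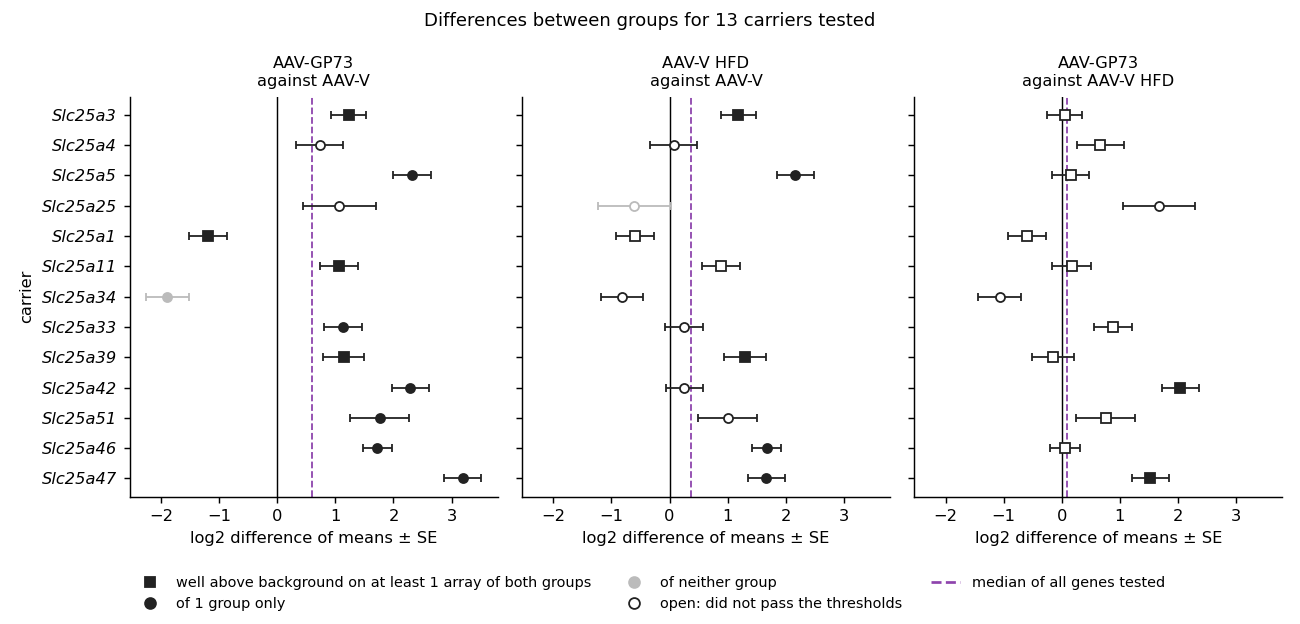
Log2 difference of group means ± SE (horizontal axis) of 13 of the 14 carriers in the 3 comparisons, with filled symbols for carriers past the fold and adjusted p thresholds, squares for those well above background on at least 1 array of both groups and a dashed line for the median of all genes tested. Slc25a42 and Slc25a47 are the filled symbols between AAV-GP73 and AAV-V HFD, and Slc25a1 and Slc25a34 lie left of 0 in all 3 comparisons.

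None of the 9 carriers of amino acids taken here could be tested, and the 3 carriers left out by the rule were not sorted by substrate. Slc25a22, a glutamate carrier, was well above background on 2 AAV-GP73 arrays, Slc25a44, a carrier of branched-chain amino acids, on 1 AAV-GP73 and 1 AAV-V HFD array, Slc25a29, a carrier of basic amino acids, on 1 AAV-V array, and Slc25a12, the aspartate/glutamate carrier of excitable tissues, on 1 AAV-V HFD array. Slc25a2, Slc25a18, Slc25a38, Slc25a45 and Slc25a48 were so on none. Of the iron carriers, Slc25a37 (mitoferrin 1) was well above background on 1 AAV-GP73 array and Slc25a28 (mitoferrin 2) on none. Of the uncoupling protein-like carriers, Slc25a30 was so on 1 AAV-GP73 array, and Slc25a14 and Slc25a27 on none. The signal of carriers below background was itself higher on the AAV-V arrays, as for Slc25a10, with a mean of 1.53 there against 0.12 with GP73 and 0.26 with HFD, and no direction was read from it.

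**Figure D4:**
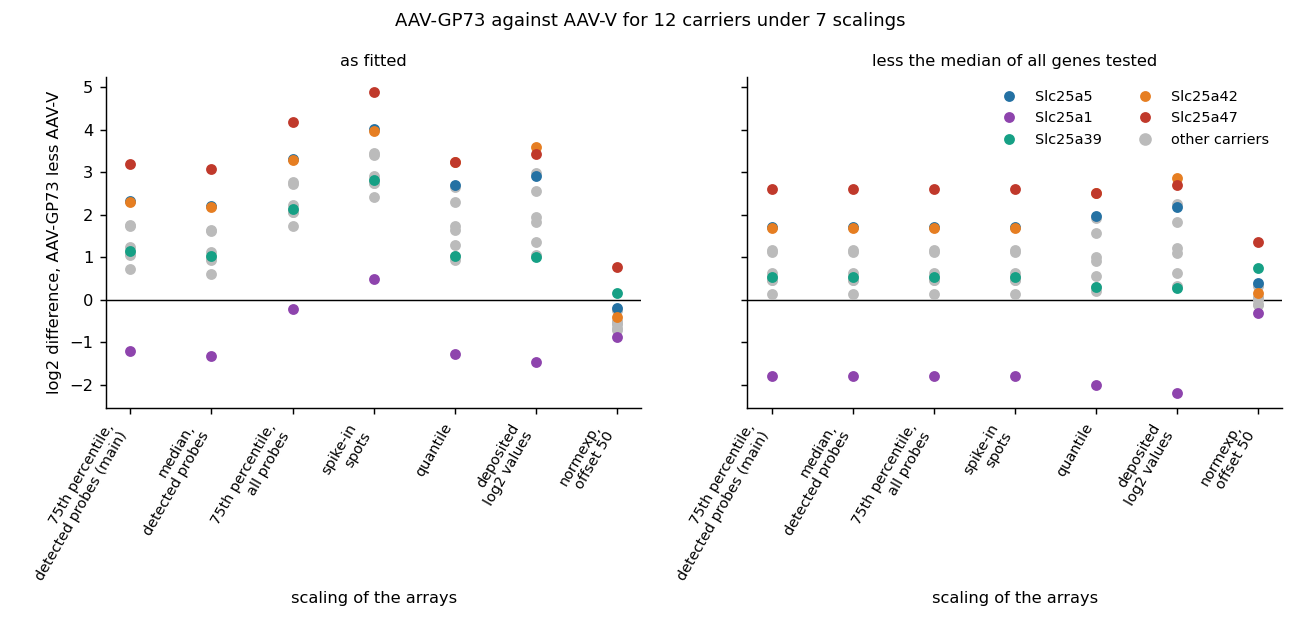
Log2 difference between AAV-GP73 and AAV-V (vertical axis) of 12 carriers detected in at least 1 of these groups, under 7 scalings of the arrays, as fitted (left) and less the median of all genes tested (right). The points shift together between scalings as fitted, from -1.47 for Slc25a1 in the deposited table to 4.88 for Slc25a47 with spike-in spots, whereas less the median Slc25a47 stays between 1.35 and 2.69 and Slc25a1 below 0. Of the scalings, those that shift whole arrays cannot change the values less the median.

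Other genes of mitochondrial transport and respiration were read beside the carriers. Of 10 other transport genes tested, 8 were higher with GP73 and 5 with HFD than in AAV-V, against 33.2% and 24.8% of all genes tested, with medians of 0.74 and 0.67 less that of all genes. The 5 in AAV-V HFD were Mpc1 and Mpc2, the subunits of the pyruvate carrier, and Vdac1, Vdac2 and Vdac3, the outer membrane channels. Mpc1 rose by 1.65 ± 0.30 on the log2 scale in AAV-GP73 (adjusted p = 0.000758) and by 1.49 ± 0.30 in AAV-V HFD (adjusted p = 0.00224). Sfxn1, a serine transporter, and Tspo, an outer membrane protein, were higher in AAV-GP73 and did not pass in AAV-V HFD. Of 35 genes of the respiratory chain and ATP synthase tested, 30 were higher with GP73 and 25 with HFD and 0 lower, with medians of 0.94 and 1.03 less that of all genes. Of those higher, 3 and 1 transport and 9 and 7 respiration genes were above background on no AAV-V array, so that they too entered the test through the brighter groups. With normexp the transport genes had 0 calls and medians of -0.30 and -0.45, and those of respiration 4 and 2 higher and medians of 0.16 and -0.022. Less the median of all genes both lists stayed above 0 after quantile normalization, with normexp and in the deposited table. The remaining scalings shift whole arrays and could not change these values. Of the relatives under other names, Mtch2 was higher in AAV-GP73 (log2 1.32 ± 0.31, adjusted p = 0.00356) and Mtch1 did not pass (0.73 ± 0.26). Between AAV-GP73 and AAV-V HFD 0 of these genes passed, and 1 transport gene had an unadjusted p under 0.05 (limma).

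Markers of other cells moved with the groups as well. The summed signal of 8 erythroid markers, mostly that of Hba-a1 in AAV-GP73, was 10.72 to 13.04 (log2) on the AAV-GP73 arrays, 7.81 to 8.96 on the AAV-V and 8.36 to 9.14 on the AAV-V HFD arrays, while Epb4.2, Rhag and Klf1 stayed below background. Hba-a1, a haemoglobin chain, was 3.85 ± 0.55 (log2) higher in AAV-GP73 than in AAV-V (adjusted p = 0.0002) and 3.18 ± 0.55 higher than in AAV-V HFD (adjusted p = 0.0147), and Alas2, the other erythroid marker tested, did not pass (0.75, adjusted p = 0.331). That of 7 macrophage markers was 7.58 to 7.97, 7.23 to 7.35 and 7.73 to 8.08, and that of 7 hepatocyte markers 13.01 to 13.38, 13.06 to 13.46 and 12.13 to 13.12, in the same order. In the scaling used here Clec4g of endothelium, at background in AAV-V, and Dcn of fibroblasts (1.20 ± 0.27) were higher in AAV-GP73 than in AAV-V, and Des of stellate cells was lower in AAV-GP73 (-2.14 ± 0.52) and AAV-V HFD (-2.31 ± 0.52). Of 6 endothelial markers Clec4g alone was tested. Their summed signal overlapped between AAV-V (4.75 to 5.17) and AAV-GP73 (4.83 to 5.37), and was 3.54 to 4.69 in AAV-V HFD. Pecam1, also endothelial, was well above background on 1 AAV-V array and on none of the other groups. Summed lymphocyte markers (6) gave 6.20 to 6.98 in AAV-V, 5.45 to 6.48 in AAV-GP73 and 5.56 to 6.24 in AAV-V HFD. The 1 of them tested passed in no comparison. Markers of cholangiocytes and of adipocytes and muscle gave 0 genes bright enough to test. The part of other cell types in the carriers' differences was not tested.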

How the data were processed

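The carriers, gene lists and tests were chosen with earlier results of these data known. The arrays were one-colour Agilent, and the authors' deposited scanner files give intensity as processed signals of Feature Extraction (version 12.0.3.1 in the file headers, 10.7 per the labels), corrected within but not between arrays. The log2 table deposited by the authors holds 56605 probes, all matched to the scanner output. Its column medians lay between 0.799 and 0.801, its normalization and centring are not given in the sources used here, and it served as an alternative. Probe coordinates are mm9, per the file headers, and all tested carriers' probes are assigned to a RefSeq mRNA. Whether they lie in coding or untranslated exons was not analysed here.

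In R 4.3.3, log2 processed signals were shifted to a common 75th percentile of the 2667 probes well above background on all 9 arrays, since under 1 in 5 spots (10.2% to 18.4%) were so. Quality-marked spots were left out and spots of 1 probe averaged. For each gene name the brightest probe was kept. A gene entered the test if this probe was well above background on every array of some group, which left 5761, fitted in 1 model with limma 3.58.1 (lmFit, eBayes), with Benjamini-Hochberg adjustment over all of them, and called at 2-fold or more with an adjusted p under 0.05. Unless another fit is named, every adjusted p is from this test. Those given without an array or with the replicate block are from refits. Those of the second Slc25a3 probe are from a fit of 6591 single probes. Carriers and lists of related genes are named by membership, and 1 tested carrier and some related genes are not reported here by name. A bound ("at least N-fold") sets the mean of the brighter group against, per array of the other, the higher of its lowest well-above-background signal and its own value. The number of arrays limits the precision. Alternatives were 6 other scalings (including normexp with an offset of 50), 2 other filters, all probes of a gene, 2 groups only, trend and robust eBayes, the replicate number as a block, the methods' t-test, no minimum fold, leaving out each array and, chosen after seeing the data, a floor for undetected arrays. The steps were tested on simulated data.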

Additional observations from a re-analysis of the deposited data

How the results depend on the processing

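The count of carriers called was 11, 5 and 2 in AAV-GP73 against AAV-V, AAV-V HFD against AAV-V and AAV-GP73 against AAV-V HFD. It became 11, 9 and 1 with the 75th percentile of all probes, 12, 6 and 1 after quantile normalization, 12, 10 and 2 with spike-in spots, 0, 1 and 0 with normexp, 11, 6 and 0 in the deposited log2 table, 33, 26 and 1 of 44 with no filter on dim probes, 2, 1 and 0 of the 2 carriers detected on all 9 arrays, and 6, 3 and 0 by the methods' t-test after Benjamini-Hochberg adjustment, from 8, 5 and 2 before it. Among genes detected on all 9 arrays the shares were 16.1%, 11.6% and 1.73%. By the methods' t-test they were 29.1%, 20.4% and 4.13% before adjustment and 24.9%, 13.9% and 0.191% after it. Leaving out 1 array gave 7 to 12, 3 to 8 and 0 to 2 carriers called. Of all genes, 29.3% to 34.4%, 21.0% to 26.5% and 0.295% to 2.27% were then higher. With no filter, 24 and 21 of the calls against AAV-V were lower, where dim probes read higher on the AAV-V arrays. So were 27635 and 26446 of all 37074 gene names. Higher were 5.38% and 4.04% of them, and 0.062% between AAV-GP73 and AAV-V HFD. Same-numbered samples correlated between -0.119 and 0.167 in their deviations from the group means, so the numbers were not taken as pairs. With the replicate number as a block the counts were 11, 5 and 1, beside 33.2%, 24.9% and 1.30% of all genes higher. Slc25a47 then missed the threshold between AAV-GP73 and AAV-V HFD (adjusted p = 0.0573). Of 820 values for the carriers named, across the alternatives, 712 kept direction and side of the threshold, 48 lost a call, 22 gained one and 38 changed sign, 19 of these with normexp. The causes of these changes were not tested. Many of the 820 values could not change sign. The other filters, 2 groups only, trend and robust eBayes, the block and the t-test keep the fitted difference. So does leaving out an array of a group not compared.

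With normexp the log2 difference in AAV-GP73 against AAV-V was -0.24 for Slc25a3, -0.56 for Slc25a4, -0.19 for Slc25a5, -0.24 for Slc25a11, -0.70 for Slc25a25, -0.66 for Slc25a33, -0.41 for Slc25a42, -0.55 for Slc25a46 and -0.50 for Slc25a51. In AAV-V HFD against AAV-V it was -0.35 for Slc25a3, -0.82 for Slc25a4, -0.36 for Slc25a5, -0.39 for Slc25a11, -0.92 for Slc25a33, -0.89 for Slc25a42, -0.69 for Slc25a46, -0.19 for Slc25a47 and -0.78 for Slc25a51, and between AAV-GP73 and AAV-V HFD 0.016 for Slc25a34. Spike-in spots turned Slc25a1 to 0.49 in AAV-GP73, Slc25a1 to 0.74 and Slc25a34 to 0.52 in AAV-V HFD, and Slc25a39 to 0.20 between AAV-GP73 and AAV-V HFD. The 75th percentile of all probes turned Slc25a1 to 0.36 and Slc25a34 to 0.14 in AAV-V HFD. The median of detected probes turned Slc25a4 in AAV-V HFD to -0.0031. Between AAV-GP73 and AAV-V HFD, Slc25a3 and Slc25a46 were -0.060 and -0.057 after quantile normalization, -0.049 and -0.058 in the deposited table and -0.064 and -0.055 without AAV-GP73 replicate 3 (Slc25a46 up to 0.12 without replicate 2), Slc25a3 -0.088 without AAV-V HFD replicate 1 and Slc25a5 -0.020 without AAV-GP73 replicate 2 (up to 0.39 without replicate 1). In AAV-V HFD against AAV-V, Slc25a4 was -0.23 without AAV-V replicate 1, and without AAV-V HFD replicate 2 it was -0.30 and Slc25a42 -0.080 (up to 0.51 over arrays left out), while Slc25a33 was -0.029 without AAV-V replicate 2 (up to 0.48).

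In AAV-V 10 of the 14 carriers were below background on every array, where differences are at most bounds. The 3 arrays a group on 2 slides leave diet and slide joined, and likewise GP73 and position on the slide.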
